A study of Mus musculus with 3 samples.

Results

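The miR-125 family holds mouse miRNAs that share their seed with lin-4 of the worm, and it was followed here through sorted Müller glia (MG), the main glia of the retina. The members were taken by miRBase identifier, namely miR-125a-5p (MIMAT0000135), miR-125b-5p (MIMAT0000136) and miR-351 (MIMAT0000609), which are 3 of the 602 miRNA rows of the table. All 3 were listed, but miR-351 lay at the lowest value of every sample, so 2 members carried the results. MG were isolated by their red fluorescence, and each condition was measured once, on 1 pool of retinas. The wild type sample held the sorts of 40 undamaged adult retinas of Rlbp1-CreER:tdTomato mice. The light damage (LD) sample held 44 retinas of Rlbp1-CreER:tdTomato mice that had been crossed to an albino strain carrying a light-sensitive Rpe65 allele, collected a week after exposure to bright light. The Dicer-cKO sample held 26 retinas of Rlbp1-CreER:tdTomato:Dicerf/f mice, collected a month after deletion of Dicer. All mice carried the MG-driven, tamoxifen-inducible Cre and received tamoxifen at 75 mg/kg. By the methods, the wild type and Dicer-cKO data came from an earlier study and were normalized anew with the LD data, so LD cannot be told apart from strain and from the study it was measured in. Retinas were pooled before measurement, so there was no spread between animals and no test was possible.

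A miRNA is cut from a hairpin precursor by Dicer, is loaded into an Argonaute protein and represses mRNAs that pair with bases 2 to 8 of its sequence, the seed. Worm lin-4 times developmental transitions by repressing lin-14 and lin-28, and its vertebrate homologues act together with let-7, a further miRNA of the same worm pathway. Both also act in the timing of progenitors while the retina forms, and in the adult miR-125b is counted among the miRNAs typical of MG.

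The mature sequences from RefSeq (GRCm38.p6) are shown because the seed is what makes these miRNAs a family. Capitals mark bases 2 to 8, which are CCCUGAG in all 3, and the bases after the seed are what sets the members apart.
miR-125a-5p: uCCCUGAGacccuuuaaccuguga
miR-125b-5p: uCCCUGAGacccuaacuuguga
miR-351: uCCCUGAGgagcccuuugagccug
From the 5′ end miR-125a-5p and miR-125b-5p were identical over 13 bases, and they also ended in the same 5 bases. Whether the tag of one also counted the other was not tested. miR-351 shared the first 8 bases with either of them and none at the 3′ end. This seed was found in 5 (0.298%) of the 1679 mature mouse miRNA names listed by RefSeq. The other 2, miR-6367 and miR-6394, could not be matched to rows, because the values are listed by identifier only.

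The precursors lie in separate clusters. Mir125a (chr17:17830812-17830879, plus strand) lies within the gene Spaca6, 0.4 kb from Mirlet7e and 0.6 kb from Mir99b. miR-125b-5p has 2 precursor genes with the same mature sequence, so that its count cannot be divided between them. The first is Mir125b-1 (chr9:41581926-41582002, plus strand) within the long non-coding RNA gene Mir100hg, 45.1 kb from Mirlet7a-2 and 50.4 kb from Mir100. The second is Mir125b-2, whose mature product lies at chr16:77646279-77646300 on the plus strand, 46.5 kb from Mirlet7c-1 and 47.3 kb from Mir99a. The mature miR-351 lies at chrX:53053315-53053338 on the minus strand, among 6 other miRNA genes (Mir322, Mir503, Mir542, Mir450-1, Mir450-2 and Mir450b). Each miR-125 precursor of the glial members thus sits beside a let-7 gene and a gene of the miR-99/100 family. The hairpins of Mir125a and Mir125b-1, the molecules that Dicer cuts, are shown with the mature 5′ arm in capitals.
Mir125a: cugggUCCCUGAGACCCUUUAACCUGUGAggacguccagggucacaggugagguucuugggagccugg
Mir125b-1: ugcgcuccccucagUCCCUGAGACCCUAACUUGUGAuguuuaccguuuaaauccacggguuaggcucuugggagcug

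The counting was done by NanoString nCounter, in which a tag is joined to each mature miRNA of a set panel and read out without amplification. Totals, shares and ranks therefore cover the 602 miRNA rows only. The values are counts from which the authors had subtracted a background and which they had scaled to 4 housekeeping mRNAs, called normalized counts below. Dividing out the scaling gave 678722 miRNA counts for wild type MG, 230232 for LD and 44258 for Dicer-cKO. The Dicer-cKO values were therefore the least precise. Intervals below are exact 95% intervals on these counts and cover counting error only. Counts of different miRNAs also depend on how well each tag is captured, so ranks and shares describe counts and not numbers of molecules.

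miR-125b-5p reached 109596 normalized counts in undamaged glia, against 19063 in the LD sample and 18202 in the Dicer-cKO sample. It was thus highest in wild type MG, where it was the 2nd most abundant of the 602 miRNAs, and low in both other samples. It was still 2nd in Dicer-cKO MG, but 5th after LD. Its part in all miRNA counts came to 13.98% (95% interval 13.90 to 14.06) in wild type MG, fell to 4.07% (3.99 to 4.15) with LD and stood at 9.30% (9.03 to 9.58) without Dicer.

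For miR-125a-5p the normalized count was 5639 in the wild type pool, 1275 in the LD pool and 661 in the Dicer-cKO pool. Here the order was wild type, LD and Dicer-cKO, with neighbours further apart than counting error, and its rank among the 602 miRNAs went from 16 to 33 and 41. Before scaling these values stood for 4882, 626 and 150 counts. Its part in all miRNA counts was 0.719% (0.699 to 0.740), 0.272% (0.251 to 0.294) and 0.338% (0.286 to 0.396), respectively. By this measure, which does not rest on the housekeeping mRNAs, LD was the lowest sample for both members, though for miR-125a-5p the intervals of LD and Dicer-cKO overlapped, whereas the normalized counts were lowest in Dicer-cKO MG. A single row, miR-720, made up 36.9% of the counts after LD. This tRNA-derived row carries a miRNA identifier and is included in the miRNA totals, shares and ranks given here. Without it the rank of miR-125b-5p after LD is 1 place higher, and in that sample miR-125b-5p was 6.45% and miR-125a-5p 0.431% of the rest. LD then stayed the lowest sample for miR-125b-5p (9.86% in Dicer-cKO MG) but not for miR-125a-5p (0.358%).

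miR-351 was listed at 1 in the wild type sample, at 2 in the LD sample and at 4 in the Dicer-cKO sample. These are the lowest values that each sample holds, shared by 260, 356 and 359 miRNAs, and they differ only through the scaling factors. No level and no ratio can be given for it.

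**Figure D1:**
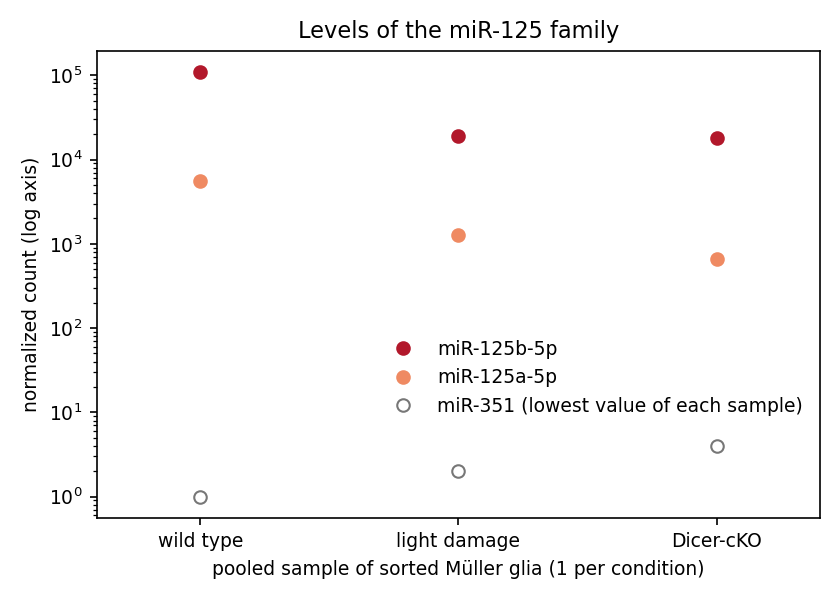
Normalized counts (log axis) of the 3 family members in the pooled wild type, LD and Dicer-cKO samples, 1 point per sample. miR-125b-5p and miR-125a-5p (filled) were highest in wild type MG, at 109596 and 5639, and miR-351 (open) lay at the lowest value of each sample.

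After LD miR-125b-5p was 5.75-fold lower (95% interval 5.63 to 5.87) and miR-125a-5p 4.42-fold lower (4.07 to 4.81) than in wild type MG. The 2 members that could be measured were thus both at least 2-fold lower, beside 39.4% of the 104 miRNAs averaging 100 or more normalized counts over the samples, a filter that miR-351 did not pass. For miR-125a-5p this held in 10 of 11 scalings and not with the same total without miR-720 (1.72-fold lower), and the 41 miRNAs behind that percentage dropped to 15 with Gapdh alone and 20 with the same total without miR-720. The ratio of LD to wild type was 0.174 for miR-125b-5p and 0.226 for miR-125a-5p against a median of 0.613 over the 104. Of these 104 miRNAs 6 had a lower ratio than miR-125b-5p and 12 a lower one than miR-125a-5p. Among the 37 miRNAs averaging 1000 or more, none had a lower ratio than miR-125b-5p and 2 had a lower one than miR-125a-5p. Over all 281 miRNAs with fewer normalized counts after LD, the summed loss was 493912 counts, and the miR-125 members made up 94897 of it (19.2%), beside their 14.7% of all miRNA counts in wild type MG. Only 1 miRNA, miR-204, lost more counts than miR-125b-5p.

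After Dicer deletion miR-125b-5p was 6.02-fold lower (5.84 to 6.21) and miR-125a-5p 8.53-fold lower (7.24 to 10.1) than in wild type MG. Both were past 2-fold, as were 60.6% of the 104 miRNAs, so that a 2-fold fall by itself did not set the family apart from the rest. For miR-125b-5p this held in 9 of 11 scalings, the fall being 1.503-fold with the same total miRNA count and 1.46-fold with that total without miR-720, where 10 and 11 of the 104 miRNAs were past 2-fold, against 63 as deposited. The median fall over the 104 was 2.57-fold. A lower ratio than that of miR-125b-5p was found for 16 of the 104 and a lower one than that of miR-125a-5p for 9. Among the 37 miRNAs averaging 1000 or more, 4 had a lower ratio than miR-125b-5p and 3 a lower one than miR-125a-5p. More miRNAs thus fell further than miR-125b-5p after Dicer deletion than after LD in either set, whereas for miR-125a-5p the sets differed, with fewer among the 104 and 1 more among the 37. The family accounted for 15.7% of the summed loss of 614889 counts in this sample, close to its 14.7% of the wild type counts. The comparisons share the wild type sample, so the members' falls are given side by side and not as separate evidence.

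Between the 2 conditions, miR-125b-5p was nearly level, with an LD to Dicer-cKO ratio of 1.05 (1.01 to 1.09). miR-125a-5p was 1.93-fold higher after LD (1.61 to 2.32). Neither member was at least 2-fold higher after LD than in Dicer-cKO MG, compared with 41.3% of the 104 miRNAs, and the median ratio over the 104 was 1.67. The ratio of miR-125b-5p was below that median, and the ratio of miR-125a-5p was above it. These counts moved with the reference. miR-125a-5p was past 2-fold with Gapdh alone (3.16) and B2m alone (2.398), where 74 and 51 of the 104 miRNAs were past it, against 43 as deposited and 10 with the same total miRNA count or Rpl19 alone. Before any scaling and against the ERCC controls both members were past 2-fold, at 4.19 and 5.24 for miR-125a-5p and 2.27 and 2.85 for miR-125b-5p, as were 65 and 71 miRNAs.

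**Figure D2:**
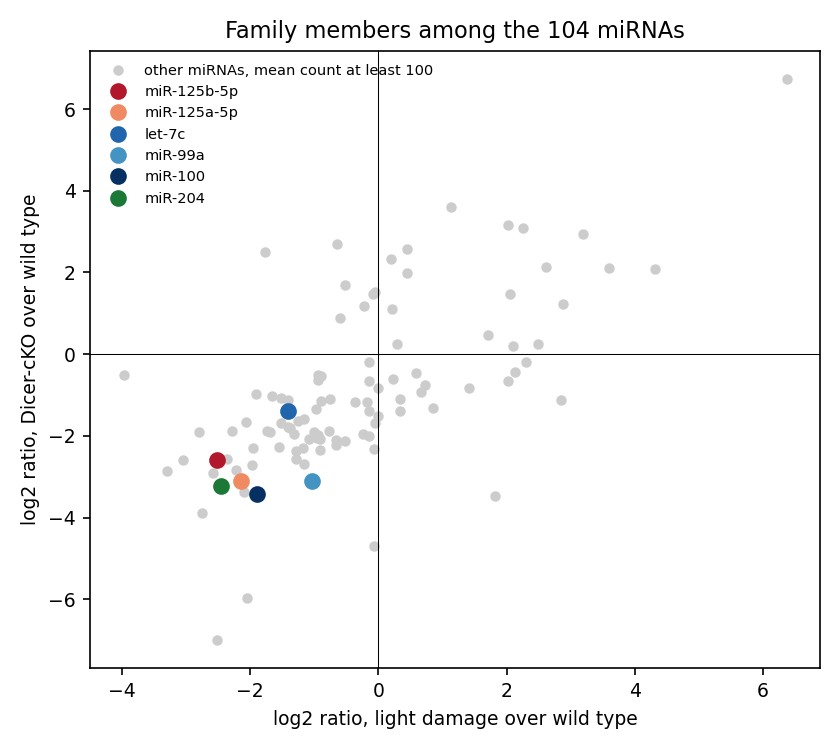
Log2 ratios to wild type after LD (horizontal axis) and in Dicer-cKO MG (vertical axis) for the 104 miRNAs averaging 100 or more normalized counts, 1 point per miRNA. miR-125b-5p (-2.52 and -2.59) and miR-125a-5p (-2.14 and -3.09) lie at the lower left beside miR-204, and both axes share the wild type sample.

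The size of these falls depended on the reference. The housekeeping mRNAs did not move together after LD, since Rpl19 was 1.71-fold and Gapdh 0.475-fold the wild type value. The family was compared under the deposited scaling and 10 others. miR-125b-5p was lower than in wild type MG in all 11, by 2.24-fold to 11.5-fold after LD and by 1.46-fold to 32.7-fold after Dicer deletion. miR-125a-5p was also lower in all 11, by 1.72-fold to 8.83-fold and by 2.07-fold to 46.3-fold. The largest falls came with the ERCC controls, which like the counts before scaling were chosen after seeing the data. Without these 2, the largest falls after LD and Dicer deletion were 9.83-fold and 7.78-fold for miR-125b-5p. For miR-125a-5p they were 7.56-fold and 11.0-fold. The smallest falls were found when the samples were brought to the same total without miR-720. With the samples brought to the same total miRNA count, which removes any fall that all miRNAs share, miR-125b-5p was 0.291-fold the wild type level after LD and 0.665-fold after Dicer deletion. The order of LD and Dicer-cKO did not hold for miR-125b-5p, whose ratio of LD to Dicer-cKO ranged from 0.437 to 2.85 and was below 1 in 6 of the 11 scalings. For miR-125a-5p it ranged from 0.805 to 5.24 and was below 1 in 1. Without the same 2 settings the highest ratios were 1.72 for miR-125b-5p and 3.16 for miR-125a-5p, both with Gapdh alone.

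**Figure D3:**
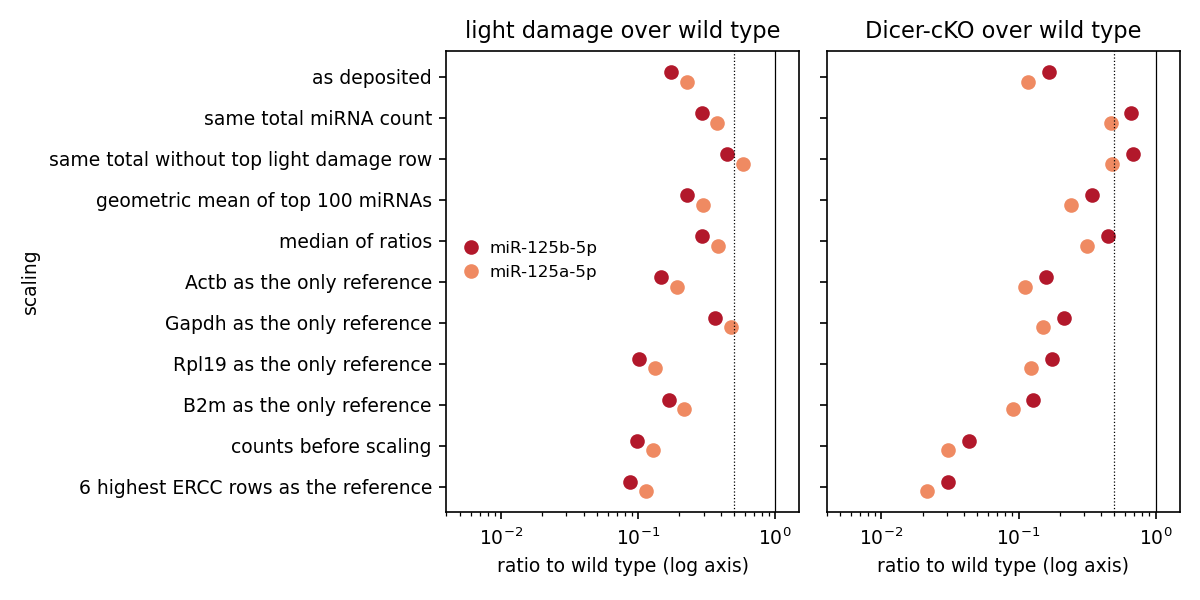
Ratio to wild type (log axis) of miR-125b-5p and miR-125a-5p after LD (left) and in Dicer-cKO MG (right) under the deposited scaling and 10 others, with a solid line at 1 and a dotted line at 0.5. Every point lies below 1, and the 2 members keep their order within each panel because a scaling multiplies both alike.

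The balance between the 2 members does not depend on any scaling of a sample. miR-125a-5p made up 4.89% (4.76 to 5.03) of the counts of both in the wild type sample, 6.27% (5.80 to 6.76) in the LD sample and 3.51% (2.97 to 4.10) in the Dicer-cKO sample. The 3 intervals did not overlap. Relative to miR-125b-5p, miR-125a-5p thus changed by a factor of 1.30 (1.19 to 1.42) after LD and of 0.708 (0.596 to 0.836) after Dicer deletion. Compared with wild type, the share was thus higher in the LD pool and lower in the Dicer-cKO pool, and between these pools the ratio differed 1.83-fold (1.53 to 2.22). These differences between pools exceeded counting error, but how much the balance varies between animals was not measured. The Dicer-cKO value rests on 150 counts of miR-125a-5p, from which a background of unknown size had been subtracted.

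The cluster neighbours that could be named were miR-100, from the Mir125b-1 locus, and let-7c and miR-99a, from the Mir125b-2 locus. let-7c is also encoded at a further locus, and the neighbours of miR-125a-5p and of miR-351 could not be named in the table. The names of these neighbours rest on an earlier matching of rows to bars of a published chart. miR-100 and miR-99a belong to a family of their own, and let-7c is a member of the let-7 family.

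let-7c went from 26178 normalized counts in wild type MG to 9888 in the LD sample and 9984 in the Dicer-cKO sample. The count of miR-125b-5p per count of let-7c was 4.19 at baseline, 1.93 with LD and 1.82 without Dicer. miR-125b-5p thus fell 2.17-fold (2.09 to 2.25) more than let-7c after LD and 2.30-fold (2.18 to 2.42) more after Dicer deletion. Between LD and Dicer-cKO the ratio to let-7c differed by a factor of 1.06 (0.994 to 1.13), an interval that includes 1. miR-125a-5p fell 1.67-fold (1.53 to 1.83) more than let-7c after LD and 3.24-fold (2.74 to 3.86) more after Dicer deletion.

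miR-99a counted 19815 in the wild type pool, 9626 in the LD pool and 2284 in the Dicer-cKO pool. Per count of miR-99a there were 5.53, 1.98 and 7.97 counts of miR-125b-5p, respectively. This ratio fell 2.79-fold (2.69 to 2.90) after LD and was 1.44-fold higher (1.31 to 1.58) after Dicer deletion. miR-100 had 5626, 1507 and 524 normalized counts, and the ratio of miR-125b-5p to it was 19.5, 12.6 and 34.7. This ratio was 1.54-fold lower (1.42 to 1.67) after LD and 1.78-fold higher (1.48 to 2.15) after Dicer deletion. Against both miRNAs of the miR-99/100 family that could be named, then, miR-125b-5p lost more after LD and less after Dicer deletion, beyond counting error and whatever the scaling. miR-125a-5p also lost more than both after LD, by 2.15-fold (1.97 to 2.35) against miR-99a and 1.18-fold (1.06 to 1.33) against miR-100. After Dicer deletion it changed by factors of 1.02 (0.842 to 1.23) and 1.26 (0.979 to 1.62) against them, intervals that include 1.

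**Figure D4:**
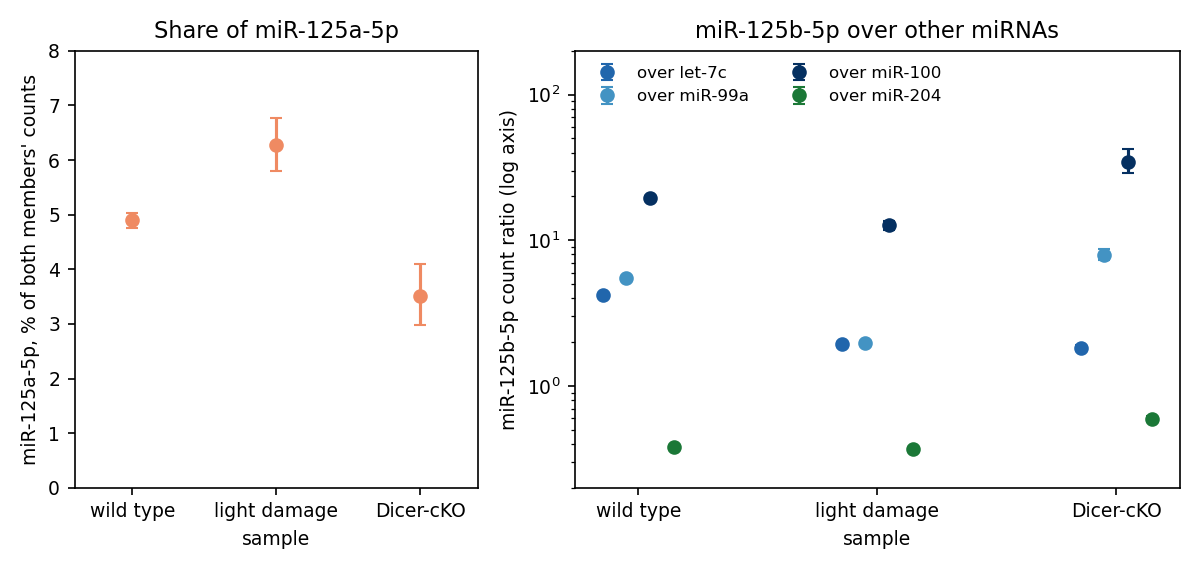
Left, percentage of miR-125a-5p in the summed counts of miR-125a-5p and miR-125b-5p per sample, and right, ratio of miR-125b-5p to let-7c, miR-99a, miR-100 and miR-204 per sample (log axis), with exact 95% counting intervals. The share of miR-125a-5p was 4.89%, 6.27% and 3.51%, and the ratios to miR-99a and miR-100 were lowest after LD and highest in Dicer-cKO MG.

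The miRNAs most like each member were found by the distance between pairs of log2 ratios to wild type (LD and Dicer-cKO, 3 samples in all) among the same 37 abundant miRNAs. The nearest to miR-125b-5p was miR-125a-5p, at a distance of 0.629, followed by miR-204 at 0.644. The next were an unnamed miRNA (MIMAT0000590) at 1.03, miR-100 at 1.04 and miR-181a at 1.23. The nearest to miR-125a-5p were miR-204 at 0.343, miR-100 at 0.412, miR-125b-5p at 0.629, miR-181a at 1.01 and miR-99a at 1.10. Since the wild type sample enters both ratios, these distances are a description.

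miR-204, the most abundant miRNA of wild type MG and also counted among the typical MG miRNAs, was therefore close to both members. Its normalized counts were 285706, 51963 and 30438 in wild type, LD and Dicer-cKO, respectively. The ratio of miR-125b-5p to miR-204 was 0.384 in wild type MG and 0.367 after LD, a change by a factor of 0.956 (0.933 to 0.980), whereas in Dicer-cKO MG it was 0.598, a rise of 1.56-fold (1.498 to 1.622). miR-125a-5p against miR-204 changed by a factor of 1.24 (1.14 to 1.35) after LD and of 1.10 (0.930 to 1.30) after Dicer deletion, the latter within counting error. Against miR-9, a further MG miRNA with 75416, 38870 and 18100 counts, miR-125b-5p fell 2.96-fold (2.89 to 3.04) after LD and 1.45-fold (1.38 to 1.51) after Dicer deletion. Against miR-181a it fell 2.35-fold (2.28 to 2.42) after LD and changed by a factor of 0.977 (0.924 to 1.03) after Dicer deletion. miR-125a-5p fell 2.28-fold (2.09 to 2.49) after LD and 2.04-fold (1.73 to 2.42) after Dicer deletion relative to miR-9. Relative to miR-181a it fell 1.81-fold (1.66 to 1.98) and 1.45-fold (1.22 to 1.72), so that after Dicer deletion only miR-125a-5p of the 2 members was lower against miR-181a beyond counting error.

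The labelled cell type was checked against the MG miRNAs that could be named, leaving out miR-125b-5p, whose own fall is the subject. miR-204 and miR-9 were among the 3 most abundant miRNAs of all samples. In wild type, LD and Dicer-cKO, miR-204 made up 36.4%, 11.1% and 15.6% of all miRNA counts, and miR-9 9.62%, 8.30% and 9.25%. In the same order, the listed miR-99a ranked 7th, 11th and 19th, and miR-100 ranked 17th, 31st and 43rd. miR-135a, a further glial miRNA of the list, ranked 12th, 7th and 9th, with 12833, 11626 and 4865 normalized counts. Of the listed glial miRNAs only miR-23a could not be named. The neuronal miR-124, the only marker of another cell type that could be named, moved the other way, from 1354 normalized counts in the wild type pool to 5506 in the LD pool and 12106 in the Dicer-cKO pool. Of all miRNA counts it made up 0.173%, 1.18% and 6.19%, respectively. Its part in the fall of the miR-125 family was not tested. In a pooled sort, fewer cells of a type and less miRNA per cell cannot be told apart.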

How the data were processed

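The authors counted miRNAs with NanoString nCounter and processed the counts with nSolver 4.0. The deposited values are a signal, namely molecule counts after background subtraction, scaled per sample to 4 housekeeping mRNAs (the methods also name 8 negative and 6 positive controls). No aligner or genome was involved. The table has 626 rows, of which 602 are miRNAs listed by miRBase identifier without names. The members were named by their identifiers. The names of 14 further rows were taken from an earlier analysis that had matched rows to bars of a published chart, a departure from the planned rule of naming rows only from reference tables. The members and lists were chosen with earlier results of these data known. The labels and the methods differ on the number of days of tamoxifen.

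The scaling factors (1.15, 2.04 and 4.42 for wild type, LD and Dicer-cKO) were read off the rows of housekeeping mRNAs and nmiR controls, deposited to 2 decimals, by a step tested on simulated data. Divided by them, all 342, 246 and 243 miRNAs above the lowest value of wild type, LD and Dicer-cKO were whole counts plus the decimals of that sample within 0.51 normalized counts, a tolerance that has little power in wild type. The subtracted background is unknown. Ratios have exact Clopper-Pearson intervals, and changes of a ratio between miRNAs exact conditional intervals. No test was run, as each condition is a single sample. Called meant at least 2-fold among 104 miRNAs averaging 100 or more. Ratios were computed without a pseudocount. The named miRNAs were the members, their opposite arms and miRNAs of the same seed, cluster neighbours within 100 kb and the 5 nearest patterns, as far as names existed, and miR-204, miR-9 and miR-181a were set against the members after their values were seen. Opposite arms and the planned photoreceptor, immune cell, red blood cell and vessel markers could not be named. Alternatives were 8 other scalings, pseudocounts and filters, with 2 scalings added after the data were seen. Sequences and gene positions came from RefSeq tables for GRCm38.p6. Values were computed in Python 3.11.15 with scipy 1.17.1, pandas 2.3.3 and numpy 2.4.6, and plots were drawn with matplotlib 3.10.9.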

Additional observations from a re-analysis of the deposited data

How the results depend on the processing

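The summed counts of miR-125a-5p and miR-125b-5p were 0.176-fold the wild type value after LD and 0.164-fold in Dicer-cKO MG, with an LD to Dicer-cKO ratio of 1.08. In the same order, these 3 ratios were 0.295, 0.656 and 0.450 with the same total miRNA count, 0.454, 0.674 and 0.673 with that total without miR-720, 0.231, 0.337 and 0.686 with the geometric mean of the 100 most abundant miRNAs, and 0.298, 0.445 and 0.670 with the median of ratios. With a single reference mRNA they were 0.149, 0.156 and 0.958 for Actb, 0.371, 0.210 and 1.77 for Gapdh, 0.103, 0.173 and 0.596 for Rpl19, and 0.170, 0.127 and 1.34 for B2m. The counts before scaling gave 0.100, 0.0428 and 2.34 and the 6 highest ERCC rows 0.0884, 0.0302 and 2.93, both chosen after seeing the data. The family was below wild type in each of these, the order of LD and Dicer-cKO was not kept, and the cause of the differences between references was not tested. Pseudocounts of 1 and 10 moved neither these ratios nor the share of miR-125a-5p beyond the counting interval. The number of the 104 miRNAs at least 2-fold lower was 41 after LD and ranged over the scalings from 15 (Gapdh alone) to 60 (ERCC rows), and was 63 after Dicer deletion and ranged from 10 (same total) to 74 (before scaling). With all 342 miRNAs above the lowest wild type value these counts were 229 and 183, among the 37 averaging 1000 or more 14 and 29, and at 4-fold 16 and 31. Those at least 2-fold higher after LD than in Dicer-cKO MG moved from 43 to 10 with the same total or Rpl19 alone and to 74 with Gapdh alone, and were 78, 19 and 14 under those filters and folds. Only 246 miRNAs after LD and 243 in Dicer-cKO MG lay above the lowest value. Part of the 342 was thus compared with a lowest value, and a filter on wild type alone favours lower calls. No paired analysis was possible because only a single pool stands for a condition. Depth was lowest in Dicer-cKO MG, where miR-125a-5p rests on 150 counts.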
